A study of Mus musculus with 9 samples.

Results

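The colony-stimulating factor (CSF) genes described here are 3 classical ligands (Csf1, Csf2 and Csf3), the second CSF1 receptor ligand Il34, and the receptor genes Csf1r, Csf2ra, Csf2rb and Csf3r. They were chosen by gene symbol. Of the 8, 7 had a row in the deposited table of 18049 genes, and Csf2 had none. Bulk RNA-sequencing had been performed on 9 clones of murine primary cells cultured from pancreatic tumors (MPC) of WTg mice, and all 9 belonged to a single condition, so the labels gave no group to compare with. WTg mice carried EL1-Luc/EL1-Tag together with CAG-Mettl3: the elastase I promoter, active in pancreatic acinar cells, drove luciferase and the SV40 large T antigen, and the ubiquitous CAG promoter drove the Mettl3 open reading frame. Colonies were picked from tumor cultures with cloning cylinders and grown in DMEM with 10% FBS. The labels called the cells fibroblasts and gave the treatment as none, although a protocol field named a PLK1 inhibitor, NMS-P937. No clones of EL1 mice without the Mettl3 transgene were in the series.

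CSF1 and IL-34 both bind CSF1R, a receptor tyrosine kinase needed for the survival and proliferation of most tissue macrophages, and fibroblasts are a major source of CSF1. GM-CSF, encoded by Csf2, binds a receptor made of the ligand-specific chain CSF2RA and the common beta chain CSF2RB, which also serves IL-3 and IL-5. G-CSF, encoded by Csf3, binds CSF3R, best known from neutrophils and their precursors. The transcription factors PU.1 (Spi1), C/EBPα and C/EBPβ are known to act on the promoters of several of these receptors in myeloid cells.

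Values are normalized counts, which are reads scaled by a factor that is fixed within a library. Gene-assigned reads totalled 12198036 in the shallowest library and 20453888 in the deepest, and 1 read was worth 1.26 to 2.19 normalized counts. A level of 3 reads, between 3.79 and 6.56 normalized counts, was taken as the floor. The column names began in 3 different ways, called prefixes A (1 library, A1), B (4 libraries, B1 to B4) and C (4 libraries, C1 to C4) here. What the prefixes stand for was not stated. Xist lay between 29664 and 32912 in prefix B and at or below 8.39 elsewhere, with Ddx3y in the reverse order, so prefix and sex of the mice cannot be told apart. A1 had the fewest reads and a Mettl3 level of 2184, against 468 to 621 in the other 8. No 2 libraries were alike within counting noise.

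The label of the cells did not cover what they expressed. All 16 macrophage markers examined were above the floor in all 9 clones, and so were 13 of the 14 fibroblast markers. Each library had 15980 to 16789 of the 18049 genes above 0, so presence alone does not set these markers apart. Adgre1, which encodes F4/80, lay between 12904 and 27704, and Col1a1 lay between 37439 and 164208. Of the 11 neutrophil markers, 9 had no row, and 1 of the remaining 2 was above the floor in all clones. Of the 7 epithelial markers, Epcam was at 0 in every clone, whereas Cdh1 (8.91 to 152), Krt19 (7.23 to 145) and Muc1 (6.31 to 17.2) were above the floor in all 9. Of the 6 acinar markers, Prss2, Ctrb1, Cpa1 and Amy2a5 stood at 306 to 610 in C3 and at 31.2 to 51.5 in C2. They stood at 7.64 or less in the other 7 clones. Cela2a averaged 0.318 in prefix B and 39.1 in prefix C, and Cela1 averaged 242 in prefix B and 218 in prefix C. For both genes the libraries of the prefixes overlapped. Cela1 differed in its level in all clones. It was the only 1 of the 6 above the floor in all 9 clones. In bulk samples of this kind, fewer cells of a type and less RNA per cell cannot be told apart.

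Promoter sequences were read for the genes that had a window in RefSeq (GRCm38.p6, 250 bases before to 50 bases after a transcript start site). For Csf1, Csf2 and Csf2rb2 this site was the 5′ end of the gene's span, whereas it lay 1218 bases inside the span for Csf3r (site at chr4:126024659) and 43 bases inside it for Csf2ra (site at chr19:61228418). These were Csf1, Csf2, Csf2ra and Csf3r among the 8 genes, and Csf2rb2, the paralog of Csf2rb. They were searched on both strands for GAGGAA, the core of a PU.1 site, and ATTGCG, a partial site of C/EBP factors. GAGGAA occurred in the windows of Csf3r, Csf2ra and Csf2rb2, and ATTGCG in that of Csf3r alone. Of all 32851 windows of this length, 28.3% held GAGGAA and 2.68% held ATTGCG. Neither was found in the windows of Csf1 and Csf2. The stretches are shown because the levels of Csf3r and Csf2ra and of these factors are given further on, and a link between them was not tested. Capitals mark the match, which reads as the reverse complement where it lies on the opposite strand of the gene.
Csf3r, GAGGAA 86 bases before that start site (chr4:126024561-126024590, plus strand): cctccttcctgaGAGGAAggggctgtctat
Csf3r, ATTGCG on the opposite strand, 10 bases before that start site (chr4:126024637-126024666, plus strand): ccaggaaggtgtCGCAATtctgggtccccc
Csf2ra, 2 adjoining copies of GAGGAA from 14 bases before that start site (chr19:61228412-61228441, minus strand): cctgcagatGAGGAAGAGGAAgcgggagac
Csf2rb2, GAGGAA on the opposite strand, 167 bases before the start site (chr15:78305871-78305900, minus strand): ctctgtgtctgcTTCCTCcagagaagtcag
Csf2rb2, GAGGAA on the opposite strand, from base 30 of the gene (chr15:78305675-78305704, minus strand): ggcactggcaacTTCCTCaatctgctctct
Such matches are letters in a window, and binding was not measured here.

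Of the ligands, Csf1 (ENSMUSG00000014599, chr3:107741048-107760469) was abundant in every clone. Its level was 25253 in A1, 20514, 21458, 20454 and 29170 in B1 to B4, and 34630, 40506, 24559 and 27945 in C1 to C4. The highest clone, C2, was thus 1.98-fold above the lowest, B3. The mean over the clones was 27166 ± 6807 (SD, n = 9), a coefficient of variation (CV) of 25.1%, where counting error alone would give 0.738%.

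Il34 (ENSMUSG00000031750, chr8:110741829-110805949) was detected in all clones at low counts, with 14 to 77 reads per library. It stood at 32.8 in A1, at 54.7, 66.9, 63.7 and 97.2 in B1 to B4, and at 18.1, 71.8, 60.2 and 100.4 in C1 to C4. Both the lowest and the highest clone carried prefix C. The CV was 42.3%, against 15.2% from counting alone, so a larger part of its spread than for Csf1 was of the size of counting error.

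Csf3 (ENSMUSG00000038067, chr11:98700183-98703631) was at 0 in 7 of the 9 clones, which allows up to 3.79 to 4.68 normalized counts at the depth of these libraries. A1 had 1 read (2.19 normalized counts), and C1 had 4 (5.17). C1 was the only clone above the floor. Csf2, Il3 and Il5, which encode the ligands of the beta chain receptors, had no row in the table, so their levels are not reported here.

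Among the receptors, Csf1r (ENSMUSG00000024621, chr18:61105572-61131139) was expressed strongly by all clones. Its level was 28085 in A1, 44385, 33997, 59537 and 46205 in B1 to B4, and 28210, 20587, 40154 and 24658 in C1 to C4. B3 was the highest and C2 the lowest, 2.89-fold apart, which is the reverse of their places for Csf1. The mean was 36202 ± 12444 (SD, n = 9), with a CV of 34.4% against 0.633% from counting.

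The ratio of Csf1r to Csf1 therefore varied more than either gene. It was 1.11 in A1, 2.16, 1.58, 2.91 and 1.58 in prefix B, and 0.815, 0.508, 1.64 and 0.882 in prefix C, a 5.73-fold range. Gene length cancels only when this ratio is compared between libraries, and its size within a library says nothing of which transcript was more abundant.

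Csf2ra (ENSMUSG00000059326, chr19:61217191-61228461) was the least variable receptor apart from 1 clone. The other 8 clones lay between 3812 and 5336 (4526 ± 561, SD, n = 8), and A1 stood at 1843 (95% Wilson interval 1722 to 1971, counting error only). A1 was thus 2.07-fold below the lowest of the others.

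Csf2rb (ENSMUSG00000071713, chr15:78325800-78351001) varied more, with 3933 in A1, 5181, 4123, 9210 and 6604 in B1 to B4, and 5402, 2032, 4912 and 3201 in C1 to C4. B3 was again the highest and C2 the lowest, 4.53-fold apart. Csf2rb2 (chr15:78282507-78305721), a near-identical mouse paralog that serves IL-3, lies 20078 bases away and ran from 2135 in C2 to 9404 in B3. The ratio of Csf2rb2 to Csf2rb stayed between 0.868 and 1.12. The submitters' notes name RSEM, a program that shares out ambiguous reads by estimation, without its role or settings, so the split between the pair is uncertain. Their sum ran from 4168 in C2 to 18613 in B3.

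Csf3r (ENSMUSG00000028859, chr4:126023441-126044975) varied most of the 4 receptor genes. It was 74.4 in A1 (34 reads, 95% Wilson interval 53.2 to 104), 935, 656, 1008 and 727 in B1 to B4, and 290, 184, 610 and 484 in C1 to C4. All libraries of prefix B lay above all of prefix C, and A1 lay below both. The highest clone was 13.6-fold above the lowest. The SD of its log2 values exceeded that of 94.0% of genes averaging 10 or more normalized counts. Of the 2 neutrophil markers with a row, S100a8 was at or below 24.6 in every clone, and Mmp8 was above the floor in all, from 73.4 in C2 to 980 in A1, the clone with the lowest Csf3r.

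**Figure D1:**
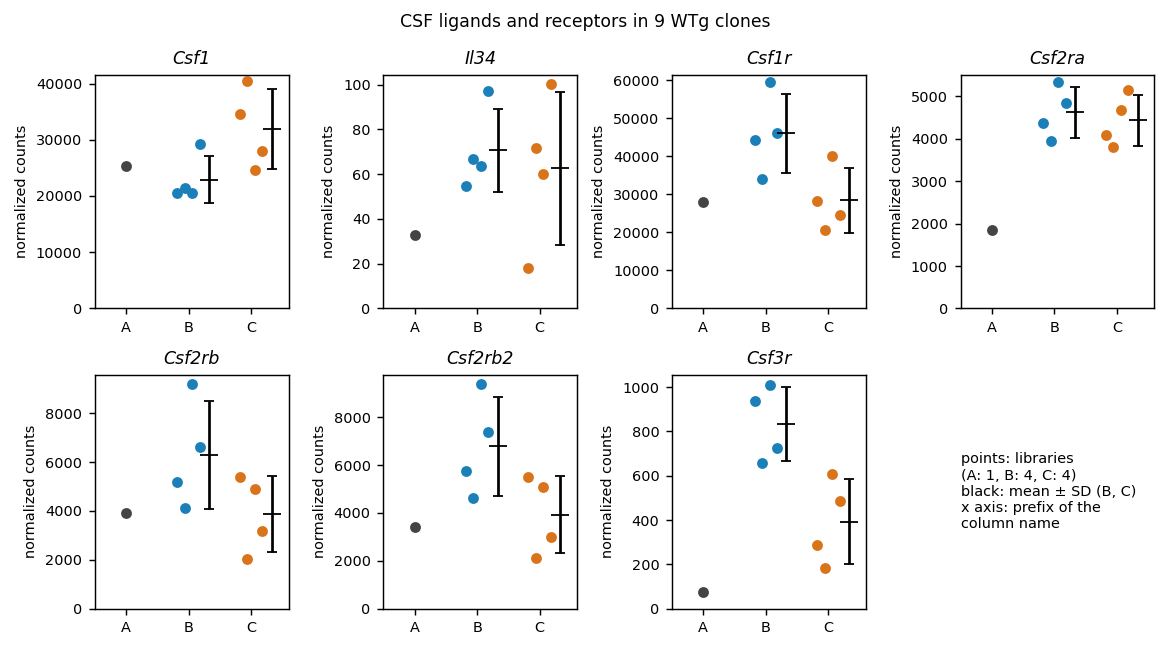
Normalized counts (linear y axes starting at 0) of 2 ligand genes, 4 receptor genes and Csf2rb2 in each library, by prefix of the column name (x axis), with 1 point per library and black marks for the mean ± SD of prefixes B and C (n = 4 each). Csf3r separates the 3 prefixes, Csf2ra is lowest in A1, and the points of prefixes B and C overlap for every other gene shown.

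All 4 receptor genes were highest in B3, a clone that was the highest for 17.9% of all genes averaging 10 or more. In B3, 8 of the 16 macrophage markers were at their highest and 7 of the 14 fibroblast markers at their lowest. C2 was the lowest clone for Csf1r and Csf2rb and for 8 of the 16 macrophage markers. Over all genes averaging 10 or more, C2 was the lowest clone for 17.6% and B3 for 13.0%. The part that the mix of macrophage and fibroblast transcripts has in the receptor levels was not tested.

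The prefix was the only split of the libraries that the table gave, and whether it is technical was not stated. Each gene was compared between prefixes C and B with limma on log2(normalized counts + 1). Of 16962 genes averaging 1 normalized count or more, 0.165% passed an adjusted p of 0.05, that is 28 genes (0.0649% higher in prefix B and 0.1% higher in prefix C), and 3149 had an unadjusted p under 0.05. Of the 6 CSF genes tested, 0 passed, and 3 (Csf3r, Csf1r and Csf1) had an unadjusted limma p under 0.05. Without C3, 242 genes passed, and still 0 of the 6 (Csf1r -0.89 and Csf3r -1.47, limma adjusted p = 0.076 and 0.073). The second of the beta chain genes, Csf2rb2, did not pass either. The median difference over the 6 genes was -0.54, and over all genes tested it was -0.02.

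Csf3r had the largest estimate of the 6. Its mean was 832 ± 167 (SD, n = 4) in prefix B and 392 ± 191 (n = 4) in prefix C, a difference of -1.21 ± 0.35 (log2, SE, 95% interval -2.0 to -0.41, limma adjusted p = 0.17). It was the only 1 of the 6 whose prefixes did not overlap, an order found for 5.25% of all genes with prefix B above C and 4.24% with C above B. The difference for Csf1r was -0.71 ± 0.23 (95% interval -1.24 to -0.18, limma adjusted p = 0.19), from 46031 ± 10488 to 28402 ± 8431. Csf1 stood at 22899 ± 4206 in prefix B and 31910 ± 7096 in prefix C, and its difference of 0.47 ± 0.18 (95% interval 0.05 to 0.89, limma adjusted p = 0.23) had the opposite sign.

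Csf2rb differed by -0.73 ± 0.34 and Csf2rb2 by -0.84 ± 0.33 (limma adjusted p = 0.30 and 0.23), and their sum gave -0.79 (adjusted p = 0.26). Csf2ra had the narrowest interval of the 6, from -0.34 to 0.21 around -0.06 (limma adjusted p = 0.80). For Il34 the interval ran from -1.47 to 0.73 around -0.37 (limma adjusted p = 0.70), and without C1 the difference was 0.13. None of these intervals shows that the prefixes were alike.

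In the macrophage list, as for the receptors, means were lower in prefix C without a call: 0 of its 16 genes passed, all 16 had the lower mean in prefix C, and their median difference was -0.37. In the fibroblast list 0 of 14 passed, the median was 0.65, and 3 had the lower mean in prefix C, among them Dcn (-1.79) and Lum (-2.07). The score of the macrophage list ran from 0.05 to 0.98 in prefix B and from -1.29 to 0.29 in prefix C. Its part in the receptor differences was not tested.

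**Figure D2:**
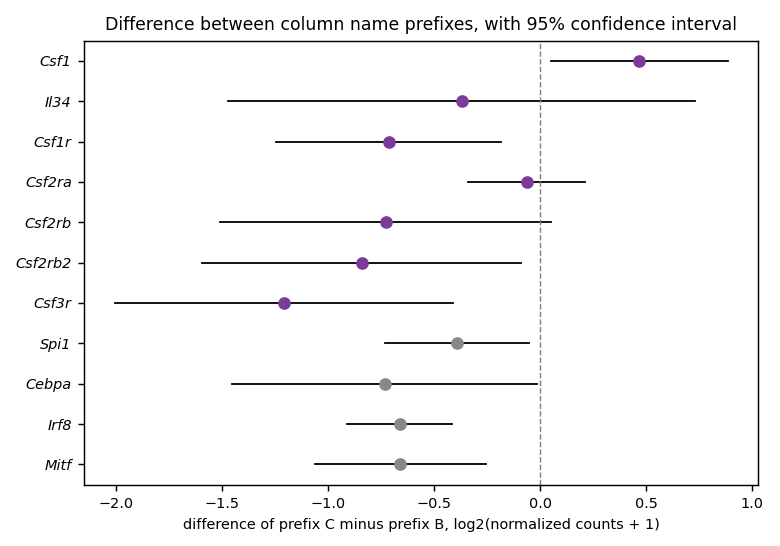
Difference between prefix C and prefix B (x axis, log2 of normalized counts + 1, limma estimate with its 95% confidence interval, n = 4 libraries each) for CSF genes and Csf2rb2 (purple) and 4 lineage factors (grey). The estimate of Csf1 is above 0 and those of the receptor genes are below it, with that of Csf2ra nearest to 0, and no gene shown passed an adjusted p of 0.05.

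Ligand and receptor levels were then related across the 9 clones on the log2 scale, with 5 relations tested by exact two-sided permutation over all pairings. For values centred within prefixes B and C, only pairings within each prefix were permuted. Csf1 and Csf1r gave r = -0.72 (exact permutation p = 0.028, adjusted over the 5 relations 0.071) and rho = -0.65 (p = 0.067, adjusted 0.11). The relation failed the correction. Centred within prefixes B and C, r was -0.51 (n = 8, exact permutation p = 0.26). Without C1 and C2, the clones farthest from the median of Csf1, r was -0.47 (n = 7, exact permutation p = 0.28). Leaving out the extremes of Csf1 narrows its range, which by itself tends to weaken r. With 1 of them left out, r was -0.71 without C1 and -0.56 without C2. Without B4, rho was -0.90 and passed (exact permutation p = 0.0046, adjusted 0.023), while r did not (adjusted 0.056).

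Csf1r and the macrophage score, the mean z-score of the 16 markers, gave r = 0.74 (exact permutation p = 0.024, adjusted 0.071) and rho = 0.68 (p = 0.050, adjusted 0.11), which also failed the correction. Within prefixes r was 0.46 (n = 8, exact permutation p = 0.34), and without B3 and C2 it was 0.49 (n = 7, exact permutation p = 0.26). Leaving out C4 alone gave r = 0.86 and rho = 0.86, with adjusted exact permutation p of 0.040 and 0.027. For Csf1 with the fibroblast score r was 0.48 (exact permutation p = 0.19, adjusted 0.32) and rho 0.67 (p = 0.059, adjusted 0.11), within prefixes r was 0.39, and without C1 and C2 it was 0.57. With 1 library left out, r ran from 0.33 (without C2) to 0.69 (without A1, n = 8, exact permutation p = 0.055, adjusted 0.091). Without A1, rho was 0.81 (exact permutation p = 0.022, adjusted 0.11), so neither passed.

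The 2 chains of the GM-CSF receptor gave r = 0.33 (exact permutation p = 0.34, adjusted 0.42) and rho = 0.55 (p = 0.13, adjusted 0.17). With 1 library left out r ran from 0.18 (without B3) to 0.58 (without A1, n = 8, exact permutation p = 0.13), within prefixes it was 0.59, and without A1 and B3 0.36. Without C4, rho was 0.88 and passed (exact permutation p = 0.0072, adjusted 0.027), while r was 0.45 (adjusted 0.30). Il34 and Csf1r gave r = 0.17 (exact permutation p = 0.67, adjusted 0.67) and rho = -0.10 (p = 0.81, adjusted 0.81). The sign of this r turned within prefixes (-0.16) and without A1 and C1 (-0.35).

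**Figure D3:**
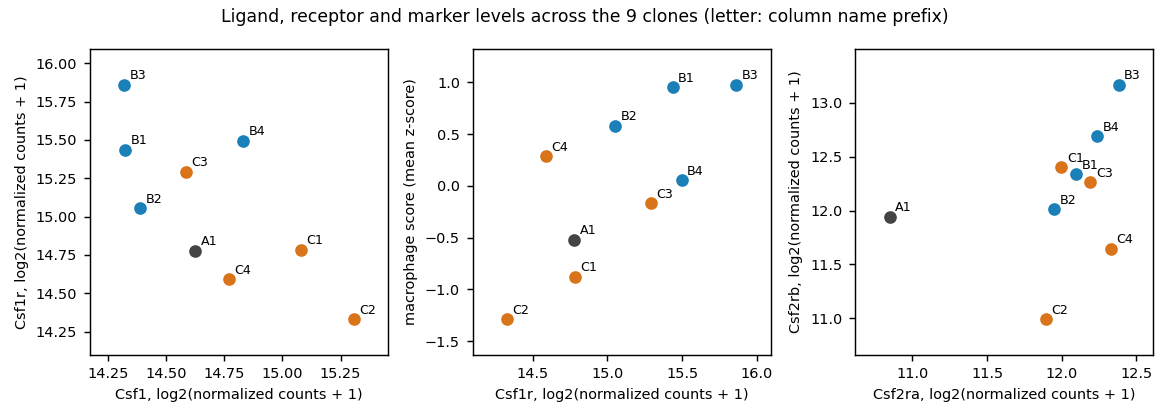
Levels of 9 clones on the log2 scale (1 labelled point per library, coloured by prefix) for Csf1 against Csf1r, Csf1r against the macrophage score (mean z-score), and Csf2ra against Csf2rb. Prefix B points lie mostly at low Csf1 and high Csf1r, and A1 stands alone at low Csf2ra in the right panel.

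A1, the single library of prefix A, stood apart for some CSF receptors and not for others. It had the lowest level of Csf2ra and Csf3r, whereas its Csf1r and Csf2rb lay within the range of the other 8 clones. Relative to the mean of those 8, Csf3r was 8.22-fold lower in A1 and Csf2ra 2.46-fold lower, against 1.33-fold for Csf1r and 1.29-fold for Csf2rb. Both Csf2ra and Csf3r were at least 2-fold below the lowest other clone, as were 4.22% of the 14705 genes averaging 10 or more. A1 was the lowest clone for 20.4% of these genes and the highest for 19.9%, so that 1 library cannot tell the state of this clone from its library.

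The factors known to act on CSF receptor genes were examined next, with 9 of the 11 having a row. Cebpa was 967 in A1 and 2727 to 10224 in the others, and Cebpb was 871 in A1 and 2651 to 4079 in the others. These levels were 2.82-fold and 3.04-fold below the lowest other clone. Spi1, which encodes PU.1, was 3289 in A1 against 3840 to 8023. Runx1 and Irf8 were also lowest in A1, whereas Mitf, Tfec, Klf4 and Ets2 were not, which makes 5 of 9. Of the 16 macrophage markers, only Fcgr1 and Mertk were lowest in A1, and Cd14 was highest there, while 7 of the 14 fibroblast markers were highest there. Neither the part of the lineage factors nor that of the fibroblast transcripts in the low Csf2ra and Csf3r of A1 was tested.

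Between prefixes C and B, 0 of the 9 lineage factors passed the test, 7 had the lower mean of log2 values in prefix C, and the median difference was -0.09. Irf8, a factor of monocyte and macrophage development, differed by -0.66 ± 0.11 (limma adjusted p = 0.073), and Mitf, a factor of osteoclasts and mast cells, by -0.66 ± 0.18 (limma adjusted p = 0.16). Their prefixes did not overlap, like those of Csf3r. Cebpa differed by -0.73 ± 0.32 and Spi1 by -0.39 ± 0.15 (limma adjusted p = 0.26 and 0.23).

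**Figure D4:**
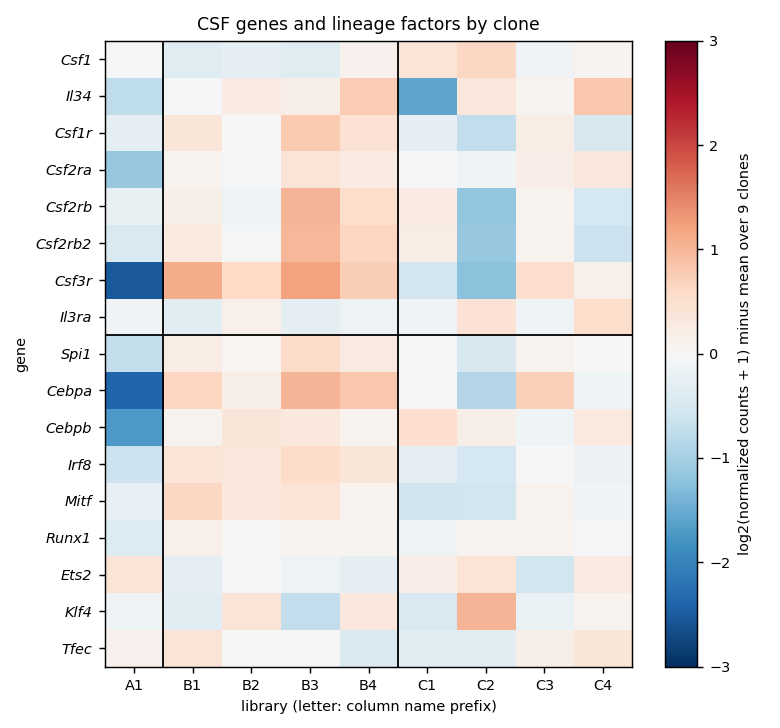
Colour gives the log2(normalized counts + 1) of each gene (rows) in each library (columns) minus its mean over the 9 clones, for CSF genes and Il3ra above the line and lineage factors under it. The lowest deviation, -2.52, is that of Csf3r in A1, where Cebpa and Cebpb are also at their lowest, and the highest, 1.22, is that of Csf3r in B3.

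Among other partners of these receptors, Il3ra, the IL-3 receptor alpha chain, was present in all clones at 443 to 796, and Il5ra had no row. Ptprz1 and Sdc1, described as further binding partners of IL-34, ranged from 120 to 1224 and from 2907 to 12532. Adam17, a protease that releases membrane-bound CSF1 and CSF1R, varied least, from 3526 to 4724 (CV 8.73%). None of the 5 partner genes with a row passed the comparison of prefixes.

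All 25 genes of the signalling list, the kinases, STATs, adaptors and inhibitors known downstream of CSF receptors, were above the floor in every clone. Presence alone does not set them apart, since each library had at least 15980 of the 18049 genes above 0. In the comparison of prefixes 0 passed, 18 had the lower mean in prefix C, and the median difference was -0.17. Cbl, the ubiquitin ligase that ends CSF1R signalling, differed by -0.42 ± 0.10 (limma adjusted p = 0.14), and Jak2, the kinase of the beta chain receptors, by 0.31 ± 0.12 (limma adjusted p = 0.23). Socs3, a feedback inhibitor of G-CSF signalling, was 1556 in A1, 411, 740, 327 and 283 in B1 to B4, and 508, 1138, 374 and 1167 in C1 to C4. A1 thus had the highest Socs3 and the lowest Csf3r, and a link was not tested. Over all genes averaging 10 or more, A1 was the highest clone for 19.9% and the lowest for 20.4%. Cish, a target of STAT5, ran from 75.5 to 233 with no separation of the prefixes.

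The genes whose pattern over the clones was most like each CSF gene were listed by Pearson r among 13003 genes, as a description, since the best of so many over 9 points is high for any gene. For Csf1r they were Sgk3 (r = 0.99), a serine/threonine kinase, Abcb4, a phospholipid transporter, and Mta3, a chromatin remodelling subunit, and within prefixes Grk3 (r = 0.996), Slc44a1 and Sgk3. For Csf3r they were Maf1 (r = 0.99), Slc11a1, a phagosomal metal transporter, and Smim13, and within prefixes Nckap1l (r = 0.999), a WAVE complex subunit of blood cells, Ppp1r16a and Vav1, an exchange factor of blood cells.

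Csf2rb was most like Stx7, an endosomal syntaxin (r = 0.99), Csf2rb2 and Lipa, the lysosomal acid lipase, and within prefixes Csf2rb2, Pwwp2b and Nfya. Csf2ra was most like Shc4, Scp2-ps2 and Guk1 (r = 0.98 for Shc4), and within prefixes Dhx8, Prdm15 and Nupr1l. Csf1 was most like Alg3, Map6 and Tnpo2 (r = 0.95 for Alg3), and within prefixes Tnfaip3, which encodes the inhibitor A20, Map6 and Kpna3. Il34, with its few reads, reached r = 0.89 with Trerf1, followed by Kansl3 and 9930111J21Rik2, and within prefixes Zfp521 (r = 0.97), Zfp607b and Klf3. Sgk3 for Csf1r, Map6 for Csf1 and Csf2rb2 for Csf2rb were in both listings of their gene.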

How the data were processed

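Stranded mRNA libraries of 9 WTg clones had been sequenced, and the authors deposited log2 values for 18049 genes, made from scaled read counts with an offset of 4 before the log2 was taken. The submitters' processing notes name FastQC 0.11.9, STAR 2.7.10, RSEM 1.3.3 and GRCm38, and the software of the scaling is not given in the sources used here. The log2 was undone and 4 subtracted. The spacing of low values gave whole reads (within 0.05 of a whole number) for 100% of nonzero values under 1000 reads. The table held 6 further columns of per-sample values of other series (MEFs), which were not used, so a comparison with MEFs was not analysed here. Column names could not be tied to clone numbers of the labels. By Xist and Ddx3y, the clones of prefix B came from other mice than those of prefixes A and C. Nothing says whether clones of the same prefix came from separate mice. The p-values thus measure the spread between these libraries, which may be technical.

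Prefixes were compared with limma 3.58.1 (R 4.3.3, lmFit and eBayes with a trend, prefix as a factor of 3 levels) on log2(normalized counts + 1), with Benjamini-Hochberg adjustment over 16962 genes with a mean of at least 1. The design foresaw counts as another unit, which the file did not hold. Relations were tested by exact two-sided permutation, within prefixes only for the centred values, with adjustment over 5. Wilson intervals are at 95%, and intervals and the floor of 3 reads cover counting error only. The limma fit and the permutation test over all pairings were also run on simulated data with simpler settings than these data. The outcome is not reported here and carries no weight for the results. Promoter windows and positions are from RefSeq (GRCm38.p6). Levels were not compared between genes, since no transcript lengths were used.

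The 8 genes, the marker, partner, signalling and lineage lists and the tests were chosen with earlier results of these data known. Named genes were the 8 genes, Csf2rb2, genes of the lists, and for each of 6 CSF genes the 3 with the highest r over the 9 clones and over the 8 libraries of prefixes B and C centred within prefix (mean of at least 10 normalized counts, names made of Gm and digits or ending in Rik skipped). Xist, Ddx3y and Mettl3 were read to describe the libraries. A gene of the lineage list is not reported here. Of the lists not described elsewhere, the sums in normalized counts ran from 0 to 15.9 for mast and lymphoid markers (1 of 7 with a row), from 26.0 to 331 for epithelial markers (6 of 7), from 144 to 2415 (C3) for acinar markers (6 of 6) and from 156 to 429 for endothelial markers (4 of 4). Alternatives were a pseudocount of 0.1, no filter, upper quartile or total scaling, voom on recovered reads, centring and leaving out libraries, and, chosen after seeing the data, Csf2rb and Csf2rb2 summed. The other steps ran in Python 3.11.15 (pandas 2.3.3, matplotlib 3.10.9, numpy 2.4.6 and scipy 1.17.1).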

Additional observations from a re-analysis of the deposited data

Results flagged for a closer look

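For 20 genes of the CSF, partner and lineage lists, the gap of the highest or lowest library to its neighbour was set against the whole range, in prefix B, in prefix C and over all 9 libraries. Of these 60 groups, 5 had a gap above the 95% critical value of Dixon's test, where chance gives about 1 in 20, or 3 of them. Csf2ra in A1, at 1843 against 3812 in the next library, had a gap of 0.564 of the range. Cebpb in A1, at 871 against 2651, had a gap of 0.555. Within prefix B, Csf1 in B4 stood at 29170 against 21458 in the next library, a gap of 0.885. Sdc1 in B2 stood at 12532 against 3783, a gap of 0.909. Klf4 in C2 was the highest of the 9 libraries, at 2708 against 1740, with a gap of 0.507.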

How the results depend on the processing

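The number of genes that passed between prefixes C and B was 28 and lay between 19 and 31 under the other 5 settings, but between 9 (without B1) and 242 (without C3) when 1 library was left out. It was 14 without B2, 12 without B3, 15 without B4, 14 without C2 and 10 without C4. None of the 6 CSF genes tested, nor Csf2rb2, passed under any of these settings (limma adjusted p at least 0.073, for Csf3r with 1 library left out). The difference of Csf2ra changed sign without B3 (0.0093) and without C2 (0.0062), and that of Il34 without C1 (0.13). With 1 library left out, the differences ran from 0.34 to 0.59 for Csf1, from -0.89 to -0.57 for Csf1r from -1.47 to -0.89 for Csf3r, from -0.67 to 0.13 for Il34 and from -0.138 to 0.0093 for Csf2ra.

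Of the relations, that of Il34 with Csf1r was -0.163 centred within prefixes, -0.353 without the 2 farthest clones, and ran from -0.0090 (without C1) to 0.37 with 1 library left out. That of Csf1r with the macrophage score ran from 0.63 to 0.86, and r passed by the exact permutation test only without C4. That of Csf1 with Csf1r ran from -0.83 to -0.56 with 1 library left out. By rho, Csf1 with Csf1r passed without B4, and Csf2ra with Csf2rb and Csf1r with the macrophage score passed without C4. The causes were not tested. The means of the 7 genes moved by less than 1 SD under both scalings and without A1. Leaving out 1 of 9 libraries cannot move a mean by that much, so this limit shows nothing about stability. Without A1, the mean of Csf3r went from 552 to 612, that of Csf2ra from 4228 to 4526 and that of Csf3 from 0.818 to 0.647. The order of genes by level per length was not run, because the reference gives genomic spans only. No paired analysis was possible because the labels give a single group and the columns carry no clone number of the labels. Depth limits Csf3 and Il34, and 4 libraries per prefix limit every comparison.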
